A study of Mus musculus with 8 samples.

Results

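The genes described here are Trp53, its core partners and known p53 targets in growth arrest, apoptosis, repair and metabolism, 32 genes in all. They were matched by symbol to the deposited count table, and all 32 were found among its 23171 genes. RNA was sequenced from the epidermis of mice given imiquimod, a Toll-like receptor 7 agonist that causes psoriasis-like inflammation of mouse skin. One genotype, called cKO here, carries an Hnrnp-u knockout that the design text places in the epidermis, and the other is labelled WT. There are 4 libraries of each, all from imiquimod-treated mice. The labels do not divide the libraries by batch, so a batch difference among them could not be seen. The sources used here do not give the driver of the deletion, the deleted exons or the strain, age and sex of the mice, nor say whether the WT mice carry any allele used for the knockout. No library without imiquimod was analysed here.

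p53, the product of Trp53, is a transcription factor that is held at a low level by the ubiquitin ligase Mdm2 and accumulates when DNA is damaged or ribosome assembly and other processes are disturbed. It then binds response elements near its target genes and raises their transcription. Its targets stop the cell cycle, trigger apoptosis, supply nucleotides and repair factors, and adjust metabolism, and Mdm2 is itself a target, which closes a feedback loop. In epidermis p53 is best known for the response of keratinocytes to ultraviolet light. Much of the control of p53 is by protein stability, which RNA levels do not show.

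Promoter windows of RefSeq (GRCm38.p6, 250 bases before and 50 after an annotated start) were held for 26 of the 32 genes, as 35 windows. They were searched for the p53 response element, a pair of adjacent 10-base repeats, on the gene's strand, allowing at most 3 mismatches of 20 and none at the core C and G of each repeat. The consensus reads the same on both strands, so 1 search covers both, and overlap with other motifs was not examined. Of the 35 windows 9 held a match (25.7%), in 8 genes, against 453 of all 32851 windows (1.38%). By gene the shares were 30.8% and 1.63%, and both Aen windows with a match hold the same site. The genes were chosen as known p53 targets, so this excess is no separate evidence about them. The 8 genes were Cdkn1a, Ccng1, Trp73, Bbc3, Aen, Sesn1, Tigar and Trp53. A match describes letters and no binding was measured. The sequences below are from 4 of these 8 genes, with the matched 20 bases in capitals. None of the 8 genes had an adjusted p below 0.05 between genotypes in edgeR or DESeq2. The Cdkn1a and Ccng1 lines give the 250 bases upstream of a start, chr17:29090729-29090978 (plus strand, one of 2 Cdkn1a windows) and chr11:40755287-40755536 (minus strand), with 1 mismatch each. The Bbc3 and Trp73 lines give 30 bases, chr7:16309481-16309510 (plus strand, 3 mismatches) and chr4:154097215-154097244 (minus strand, 2 mismatches).
Cdkn1a: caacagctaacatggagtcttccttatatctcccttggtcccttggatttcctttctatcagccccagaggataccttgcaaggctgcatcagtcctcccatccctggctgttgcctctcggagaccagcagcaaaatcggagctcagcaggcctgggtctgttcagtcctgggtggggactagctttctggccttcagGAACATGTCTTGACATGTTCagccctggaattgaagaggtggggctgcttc
Ccng1: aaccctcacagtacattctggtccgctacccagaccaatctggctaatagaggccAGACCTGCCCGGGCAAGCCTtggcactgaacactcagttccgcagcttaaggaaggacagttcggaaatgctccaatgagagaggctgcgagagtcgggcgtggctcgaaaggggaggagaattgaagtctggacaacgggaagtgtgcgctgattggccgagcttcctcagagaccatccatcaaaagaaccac
Bbc3: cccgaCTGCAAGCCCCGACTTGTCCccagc
Trp73: tctccGGGCAAGCTGAGGCCTGCCCtgagt
The Cdkn1a element begins 51 bases before the annotated start of its window, and the other Cdkn1a window, at another annotated start, held no match. The Ccng1 element begins 195 bases before its start.

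Libraries held 37158621 to 38865722 counts. The 10 keratinocyte markers, of which Perp is also a p53 target, were all detected, with sums of 67577 to 98397 CPM (counts scaled to a common library total) in cKO and 76603 to 100298 CPM in WT, and the 6 endothelial markers summed to at most 1.84 CPM. Hnrnpu, the targeted gene, stood at 190, 373, 355 and 312 CPM in cKO replicates 1 to 4 and at 424 to 455 CPM in WT. All 4 cKO libraries lay below the WT range, without passing the test over all genes (log2 fold change -0.51 ± 0.19 SE, edgeR adjusted p = 0.191). On the first principal component of all tested genes (35.8% of variance) cKO libraries lay from -50.3 to -19.1 and WT libraries from 18.0 to 51.7. On the second (26.1%) cKO replicates 1 and 4 lay at 36.7 and 56.8 and cKO replicates 2 and 3 at -35.8 and -27.7. WT libraries lay between these pairs, from -12.4 to 3.30. Replicates 1 and 4 thus stood apart from replicates 2 and 3 on the second component, on the other side of WT. On the first component replicates 2 and 3, at -35.8 and -50.3, lay farther from WT than replicates 1 and 4. The results below are therefore given by library, and again without cKO replicates 1 and 4 together, a choice made after the values were seen.

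Of the 32 genes 31 had enough counts to be tested and Gdf15 did not. No gene of the 31 was called, where called means an adjusted p below 0.05 in the edgeR quasi-likelihood test over all 14004 tested genes, against 1.32% of all tested genes. At an unadjusted p below 0.05 there were 7 higher in cKO (9.87% of all tested genes) and 1 lower (8.71%). DESeq2 called 5 of the 31, Ddit4l, Trp53inp1, Zmat3 and Dglucy as higher and Pmaip1 as lower, against 8.1% of the genes it tested. Fold changes were positive in 25 of the 31 (51.9% of all tested genes), and their median was 0.30 on the log2 scale, where that of all tested genes was 0.01. Positive fold changes here and below are higher in cKO.

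**Figure D1:**
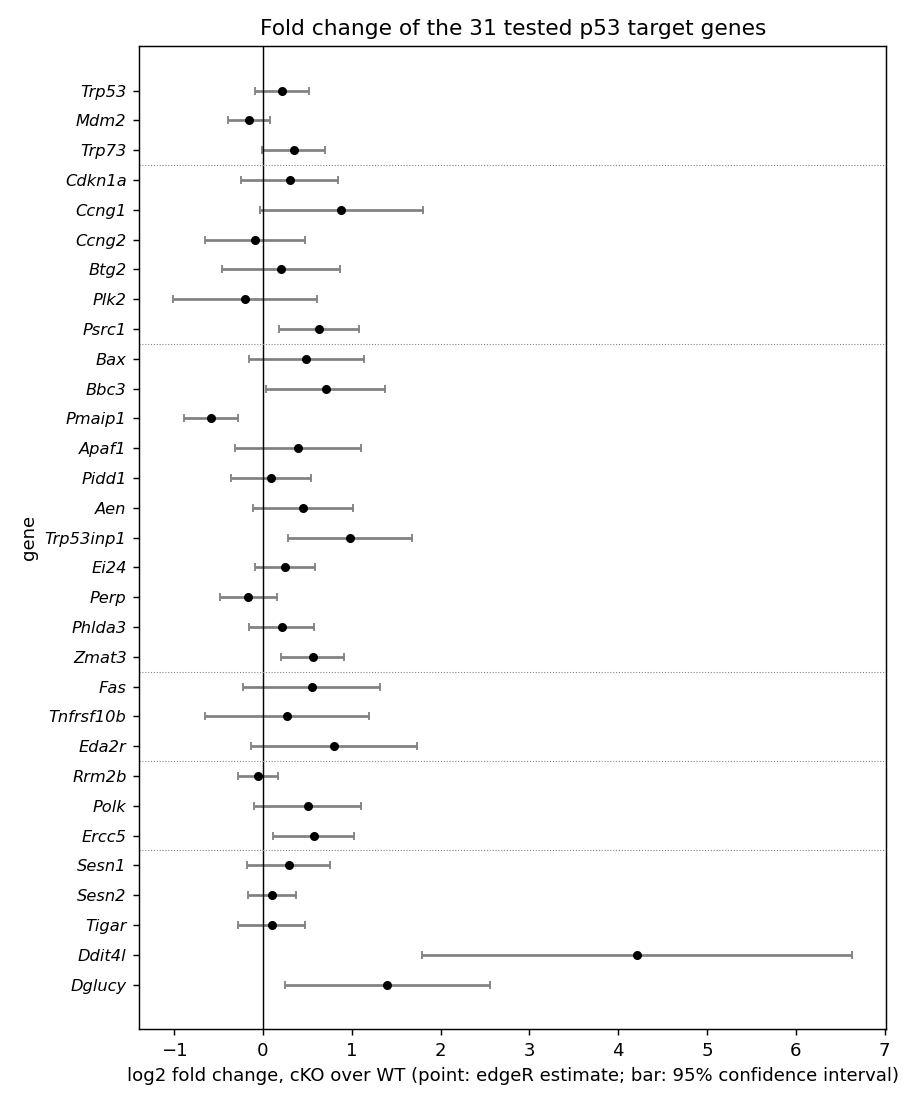
The horizontal axis is the fitted log2 fold change, cKO over WT, of the 31 tested genes in rows, with 95% confidence intervals as bars and dotted lines between groups by role. Most points lie right of 0 with intervals that cross it; Ddit4l lies farthest right at 4.21 and Pmaip1 farthest left at -0.59.

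The median hides a split among the cKO libraries. Relative to the WT mean of each gene, the median log2 ratio over the 31 genes was 0.83 in cKO replicate 1 and 0.50 in cKO replicate 4, but -0.05 and 0.00 in replicates 2 and 3, and it ran from -0.05 to 0.04 over the WT libraries. In cKO replicate 1, 22 of the 31 genes lay above all 4 WT libraries, and 1 lay below. The background over all tested genes in that library was 28.1% above and 29.8% below. In cKO replicate 4 there were also 22 above (background 29.8%) and 4 below (30.4%). In cKO replicate 2 there were 8 above (28.8%) and 10 below (27.8%), and in replicate 3 there were 7 above (32%) and 11 below (30.5%). For 24 of the 31 genes (77.4%), the 2 highest cKO libraries were replicates 1 and 4, against 25.9% of all tested genes. Leaving out those 2 libraries lowers the fold changes of those 24 genes by construction. Without them the median log2 fold change of the 31 genes was -0.05.

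**Figure D2:**
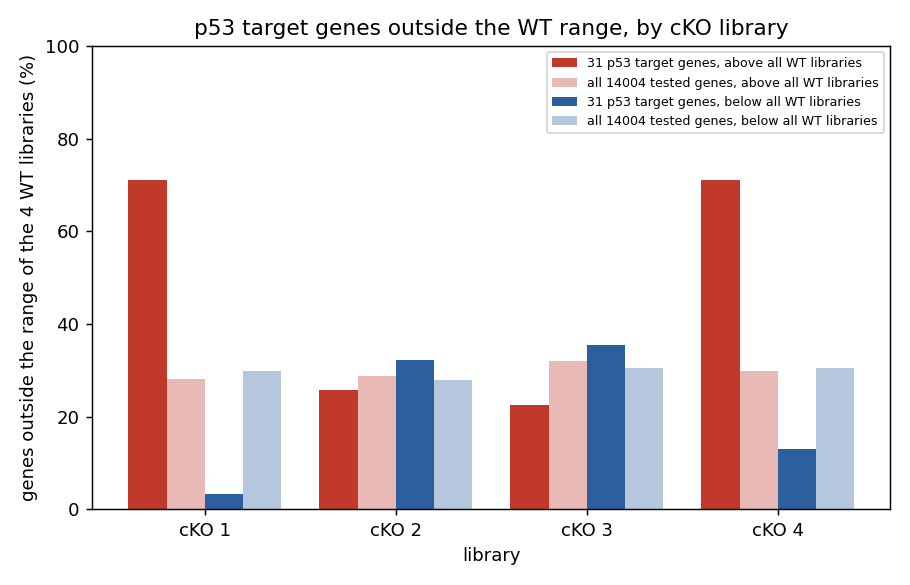
The vertical axis gives the percent of genes outside the range of the 4 WT libraries in each cKO library, in full colour for the 31 tested p53 target genes and in pale colour for all 14004 tested genes. In cKO 1 and cKO 4 the genes above the WT range, 22 of 31 in each, stand well over the pale bar, and in cKO 2 and cKO 3 they do not.

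Trp53 itself followed this split. It stood at 78.9, 54.8, 59.0 and 81.1 CPM in cKO replicates 1 to 4 and at 59.1, 56.7, 61.2 and 58.4 CPM in WT replicates 1 to 4. Replicates 1 and 4 were above every WT library, while replicate 2 was below them all and replicate 3 was within their range. Mean levels were 68.5 ± 13.5 CPM (SD, n = 4) for cKO and 58.8 ± 1.86 CPM (SD, n = 4) for WT, a difference that did not pass (log2 fold change 0.22 ± 0.14 SE, edgeR adjusted p = 0.427).

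Mdm2, the ubiquitin ligase that marks p53 for destruction and is itself a p53 target, was not above the WT range in any cKO library. It stood at 51.8, 42.9, 42.0 and 44.6 CPM in cKO replicates 1 to 4 and at 45.2, 47.9, 56.1 and 53.1 CPM in WT replicates. Replicates 1 and 4 were again the 2 highest cKO libraries, but replicates 2, 3 and 4 all lay below the WT range. Its log2 fold change was -0.16 ± 0.11 (SE, edgeR adjusted p = 0.459), with a 95% confidence interval of -0.40 to 0.08. Trp73, which encodes the p53 relative p73 and carries a response element match at its promoter, was highest in cKO replicates 1 and 4 at 25.3 and 22.8 CPM. Replicates 2 and 3, at 16.7 and 16.5 CPM, lay within the WT range of 14.3 to 16.9 CPM (0.35 ± 0.16, adjusted p = 0.280).

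**Figure D3:**
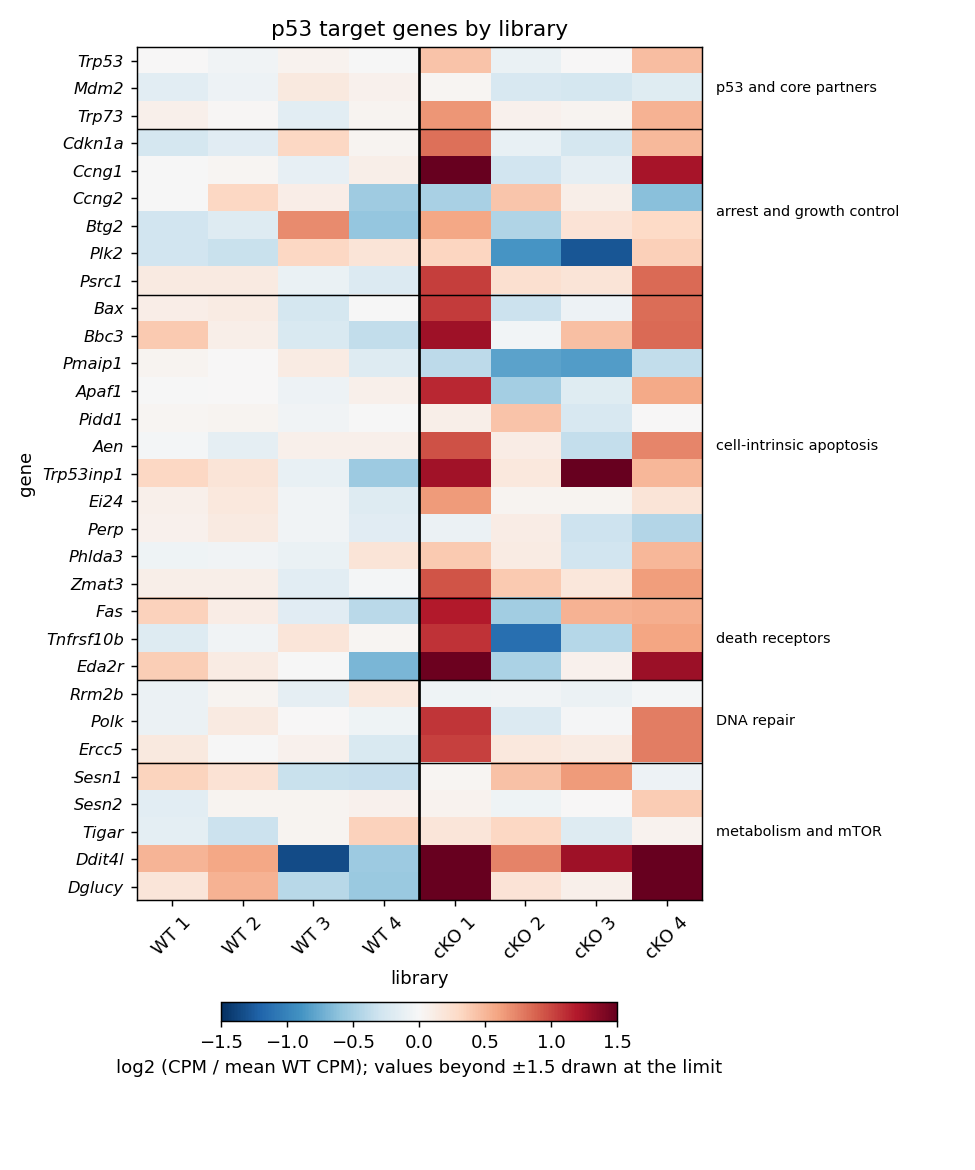
Rows are the 31 tested genes grouped by role and columns are the 8 libraries, with colour giving the log2 ratio of CPM to the WT mean of the gene, drawn at the limit beyond 1.5 in either direction. Red fills most of the cKO 1 and cKO 4 columns, from Ccng1 to Eda2r and Ddit4l, and Rrm2b and Mdm2 stay pale there.

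Among the 6 genes of arrest and growth control, 4 had a positive and 2 a negative fold change, and none was called. Cdkn1a encodes p21, the inhibitor of cyclin-dependent kinases through which p53 halts the cycle. It stood at 706, 367, 332 and 560 CPM in cKO replicates 1 to 4 and at 333, 355, 496 and 410 CPM in WT replicates. cKO replicates 1 and 4 exceeded every WT library and replicate 3 was just below them all. Its log2 fold change of 0.30 ± 0.24 (SE) had an edgeR adjusted p of 0.543, and leaving out cKO replicate 1 brought it to 0.09.

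Ccng1 encodes cyclin G1, a p53 target that takes part in the Mdm2 feedback, and showed the split most plainly in this group. It stood at 212, 52.6, 58.5 and 151 CPM in cKO replicates 1 to 4 against 58.9 to 68.6 CPM in WT. Replicates 1 and 4 were at 3.30 and 2.35 times the WT mean, and replicates 2 and 3 were just below every WT library, and the mean difference lay between them (log2 fold change 0.88 ± 0.41 SE, edgeR adjusted p = 0.284). Without cKO replicate 1 it was 0.46, and without both high libraries it was -0.21.

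Psrc1, a spindle-associated protein that binds microtubules, was 1 of 3 genes with every cKO library above every WT library (5.26% of all tested genes). It stood at 45.7, 26.2, 25.5 and 40.1 CPM in cKO replicates 1 to 4 and at 24.5, 24.5, 20.7 and 19.4 CPM in WT replicates. The distance between the genotypes was small for cKO replicates 2 and 3 (log2 fold change 0.63 ± 0.20 SE, edgeR adjusted p = 0.141, exact permutation p = 0.0286, the smallest that 4 against 4 allows). In 5 of the 6 genes of the group, all but Ccng2, replicates 1 and 4 were the 2 highest cKO libraries. Ccng2, cyclin G2, ran the other way, with cKO replicates 1 and 4 lowest at 33.7 and 30.7 CPM and replicates 2 and 3 at 62.9 and 50.3 CPM, against 32.5 to 58.7 CPM in WT. Its cKO replicate 4 was below every WT library and replicate 2 above every one. The antiproliferative factor gene Btg2 spread as widely among WT libraries, from 70.3 to 171 CPM, as among cKO libraries, from 76.5 to 156 CPM. Plk2, a polo-like kinase, stood at 83.3 and 85.2 CPM in cKO replicates 1 and 4, just above the WT maximum of 82.5 CPM, and at 36.0 and 27.5 CPM in replicates 2 and 3, below the WT minimum of 52.7 CPM.

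**Figure D4:**
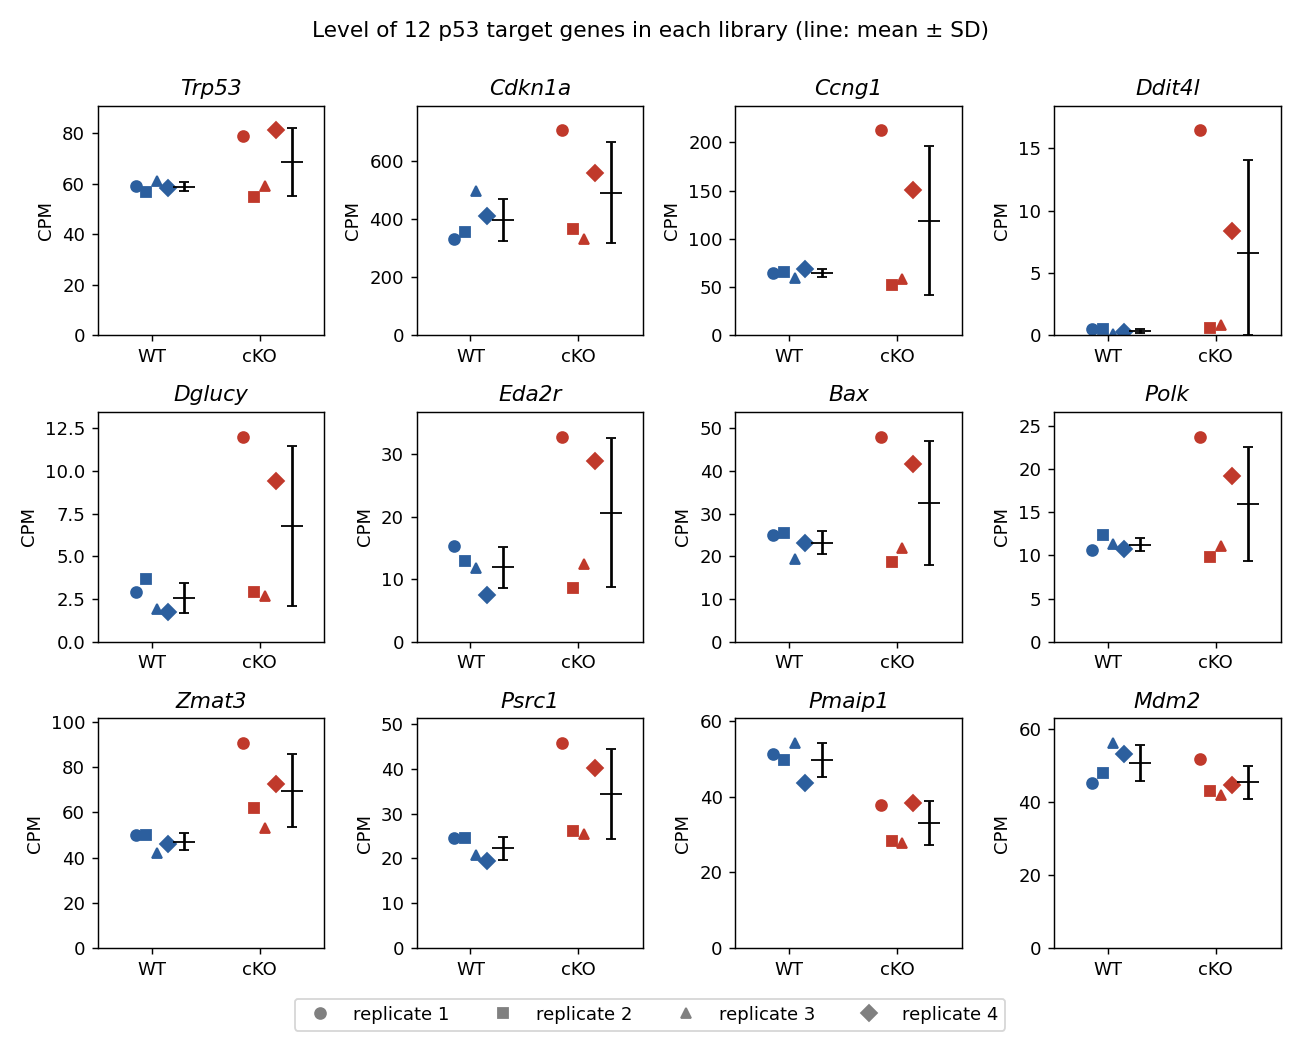
Each panel gives the CPM of 1 gene on a linear axis from 0, with WT libraries in blue and cKO libraries in red, symbols by replicate number and the mean ± SD beside the points (the Ddit4l bar in cKO ends at 0). In Ccng1, Ddit4l, Dglucy, Eda2r, Bax and Polk the circle and diamond of cKO 1 and cKO 4 stand clear of all other points; Pmaip1 is lower in every cKO library, and Mdm2 overlaps.

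Of the 11 genes of cell-intrinsic apoptosis and survival signalling, 9 had a positive and 2 a negative fold change. Bax encodes the pore-forming protein of the outer mitochondrial membrane and stood at 48.1, 18.6, 22 and 41.7 CPM in cKO replicates 1 to 4, against 19.4 to 25.4 CPM in WT. Bbc3 encodes PUMA, a BH3-only protein that activates Bax. It stood at 8.84, 3.56, 5.02 and 6.61 CPM in cKO and at 4.82, 3.90, 3.14 and 2.84 CPM in WT, so only replicate 2 of the cKO libraries overlapped the WT range (log2 fold change 0.71 ± 0.30 SE, edgeR adjusted p = 0.243). Apaf1, the scaffold of the apoptosome, stood at 22.9 and 15.6 CPM in cKO replicates 1 and 4 and at 7.37 and 9.26 CPM in replicates 2 and 3, below a narrow WT range of 9.94 to 11 CPM. Its fold change was 0.05 without cKO replicate 1 and -0.34 without both high libraries. Aen, a nuclease that acts in apoptotic DNA degradation, stood at 73.3, 40.9, 29.5 and 62.9 CPM in cKO, against 34.5 to 39.8 CPM in WT.

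Pmaip1 encodes NOXA, another BH3-only protein, and was 1 of the 6 genes of the 31 with a negative fold change, with Mdm2, Ccng2, Plk2, Perp and Rrm2b. It stood at 37.9, 28.5, 27.7 and 38.4 CPM in cKO replicates 1 to 4 and at 51.3, 49.8, 54.2 and 43.6 CPM in WT replicates. Every cKO library was below every WT library (5.82% of all tested genes), and the 2 lowest were replicates 2 and 3. The fitted level was 1.5-fold lower in cKO (log2 fold change -0.59 ± 0.13 SE, edgeR adjusted p = 0.0619, DESeq2 adjusted p = 0.007). Its edgeR unadjusted p was the smallest of the 31 genes. The exact permutation p of 0.0286 is set by the lack of overlap. Without cKO replicates 1 and 4 the log2 fold change was -0.83 with an edgeR adjusted p of 0.017, when 4.76% of all tested genes were called. Those were its 2 highest cKO libraries, so leaving them out lowers its cKO level by construction.

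Zmat3, an RNA-binding zinc finger protein that p53 induces, was higher in every cKO library. It stood at 90.6, 62.0, 53 and 72.5 CPM in cKO and at 49.9, 50.2, 42.2 and 46.2 CPM in WT (log2 fold change 0.56 ± 0.16 SE, edgeR adjusted p = 0.107, DESeq2 adjusted p = 0.0362, exact permutation p = 0.0286). Replicate 3 was the closest to the WT range. Trp53inp1, a nuclear stress protein that promotes p53 activity, had another order. It stood at 149, 69.3, 185 and 87.3 CPM in cKO replicates 1 to 4 and at 77.0, 71.2, 57.4 and 42.6 CPM in WT, so replicate 3 was its highest library and replicate 2 lay among the WT libraries (0.98 ± 0.31, adjusted p = 0.140, DESeq2 adjusted p = 0.0311). Of the other members of the group, Phlda3, an inhibitor of Akt, and Ei24, an endoplasmic reticulum protein, were highest in cKO replicates 4 and 1, at 194 and 243 CPM. Pidd1, which nucleates a caspase-2 platform, stayed between 2.44 and 3.87 CPM in all libraries. Perp, a desmosomal protein that both p53 and p63 induce, was by far the most abundant of the 32 genes per length, at a mean of 2858 FPKM, followed by Cdkn1a at 219 FPKM. Perp stood at 5439, 6249, 4636 and 4257 CPM in cKO against 5123 to 6322 CPM in WT, and it was not raised in cKO replicates 1 and 4 (log2 fold change -0.16 ± 0.14, adjusted p = 0.577).

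All 3 death receptor genes had positive fold changes, and in all 3 cKO replicates 1 and 4 were above every WT library. Eda2r, the receptor for ectodysplasin A2 in the TNF receptor family, stood at 32.8, 8.54, 12.4 and 28.8 CPM in cKO replicates 1 to 4 and between 7.39 and 15.3 CPM in WT (log2 fold change 0.80 ± 0.42 SE, edgeR adjusted p = 0.343). Fas, the receptor of Fas ligand, stood at 6.03, 1.85, 3.81 and 3.88 CPM, against 2.01 to 3.38 CPM in WT. Tnfrsf10b, the mouse receptor of TRAIL, stood at 14, 3.0, 4.90 and 9.90 CPM, against 5.77 to 7.47 CPM. Its replicates 2 and 3 were thus below all WT libraries, and the sign of its fold change (0.27) turned to -0.13 when cKO replicate 1 alone was left out.

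The 3 genes of repair and nucleotide supply differed among themselves. Polk, a DNA polymerase that copies past damaged bases, stood at 23.7, 9.77, 11.1 and 19.2 CPM in cKO replicates 1 to 4, against 10.6 to 12.3 CPM in WT. Ercc5, the XPG endonuclease of nucleotide excision repair, stood at 63.4, 34.8, 34.1 and 52.9 CPM in cKO and at 34.4, 31, 32.6 and 26.7 CPM in WT (log2 fold change 0.57 ± 0.20 SE, edgeR adjusted p = 0.182). Only cKO replicate 3 overlapped the WT range, below its upper end. Rrm2b, the p53-inducible subunit of ribonucleotide reductase, was flat, at 18.9 to 19.7 CPM in the 4 cKO libraries and 18.3 to 22.5 CPM in the WT libraries, with a 95% confidence interval of its log2 fold change of -0.28 to 0.17.

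Of the 6 genes of metabolism, mTOR control and secreted signals, 5 were tested, and 2 of those carried large fold changes. Ddit4l encodes a relative of the mTOR inhibitor REDD1. It stood at 16.4, 0.588, 0.844 and 8.40 CPM in cKO replicates 1 to 4 and at 0.498, 0.525, 0.139 and 0.241 CPM in WT, from 632, 21, 35 and 353 counts in cKO and 5 to 19 counts in WT. All cKO libraries lay above all WT libraries, but replicates 1 and 4 were at 46.9 and 23.9 times the WT mean and replicates 2 and 3 at 1.68 and 2.41 times. The log2 fold change was 4.21 ± 1.08 (SE, 95% confidence interval 1.79 to 6.64, edgeR adjusted p = 0.0828, DESeq2 adjusted p = 0.00284). It passed edgeR's threshold without cKO replicate 2 (adjusted p = 0.0365, with 3.55% of all tested genes called), and without replicates 1 and 4 it was 1.02 (adjusted p = 0.348). Dglucy, the mitochondrial D-glutamate cyclase, stood at 12, 2.94, 2.70 and 9.42 CPM in cKO and at 2.91, 3.68, 1.92 and 1.74 CPM in WT (1.40 ± 0.51, edgeR adjusted p = 0.189, DESeq2 adjusted p = 0.0498).

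Gdf15, a secreted stress cytokine, had too few counts for the test, with 25, 2, 1 and 31 counts in cKO replicates 1 to 4 and 0, 3, 0 and 1 in WT replicates. Its 2 libraries with more than 3 counts were again cKO replicates 1 and 4. Neither the sestrins, which restrain mTOR under stress, nor Tigar, which lowers glycolytic flux, exceeded the WT range in both of those replicates. Sesn1 was higher in cKO replicates 2 and 3 (58.6 and 67.2 CPM) than in replicates 1 and 4 (43.9 and 41.0 CPM). In Sesn2 replicates 1 and 4 were the 2 highest cKO libraries, but only replicate 4, at 29.8 CPM, exceeded the WT range of 20.5 to 23.8 CPM. Tigar ran from 13.9 to 19.6 CPM in cKO within a WT range of 12.7 to 20.1 CPM.

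Genes of the wider pathway were read from lists of genes outside the 32. Of 24 tested upstream kinases, cofactors and regulators of p53, none was called, with 3 higher and none lower at an unadjusted p below 0.05 (9.87% and 8.71% of all tested genes). Their median log2 fold change was 0.06, and their median ratio to the WT mean stayed between -0.02 and 0.11 over the cKO libraries. The most abundant, Rpl5 (0.11 ± 0.09 SE, edgeR adjusted p = 0.540) and Rpl11 (-0.10 ± 0.09, adjusted p = 0.611), encode ribosomal proteins that bind Mdm2. Of 29 tested further p53 targets, 1 was called as higher and none as lower, against 0.671% and 0.65% of all tested genes, and the median was 0.24. At an unadjusted p below 0.05, 9 of the 29 were higher and 3 lower, against 9.87% and 8.71% of all tested genes. The called gene was Cd82, a tetraspanin that suppresses metastasis, at 29, 31.5, 38.8 and 35.4 CPM in cKO replicates 1 to 4 and 20.3 to 24.7 CPM in WT (0.61 ± 0.12, adjusted p = 0.0405). Its highest libraries were cKO replicates 3 and 4, and its adjusted p rose to as much as 0.106 when 1 library was left out. Sfn, the abundant 14-3-3σ of keratinocytes, was at -0.48 ± 0.18 (adjusted p = 0.205), and Pcna at 0.24 ± 0.14 (adjusted p = 0.393). The median log2 ratio to the WT mean of the list was 0.18, 0.02, 0.33 and 0.16 in cKO replicates 1 to 4, highest in replicate 3. Replicates 1 and 4 were the 2 highest cKO libraries in 12 of its 29 genes (25.9% of all tested genes).

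**Figure D5:**
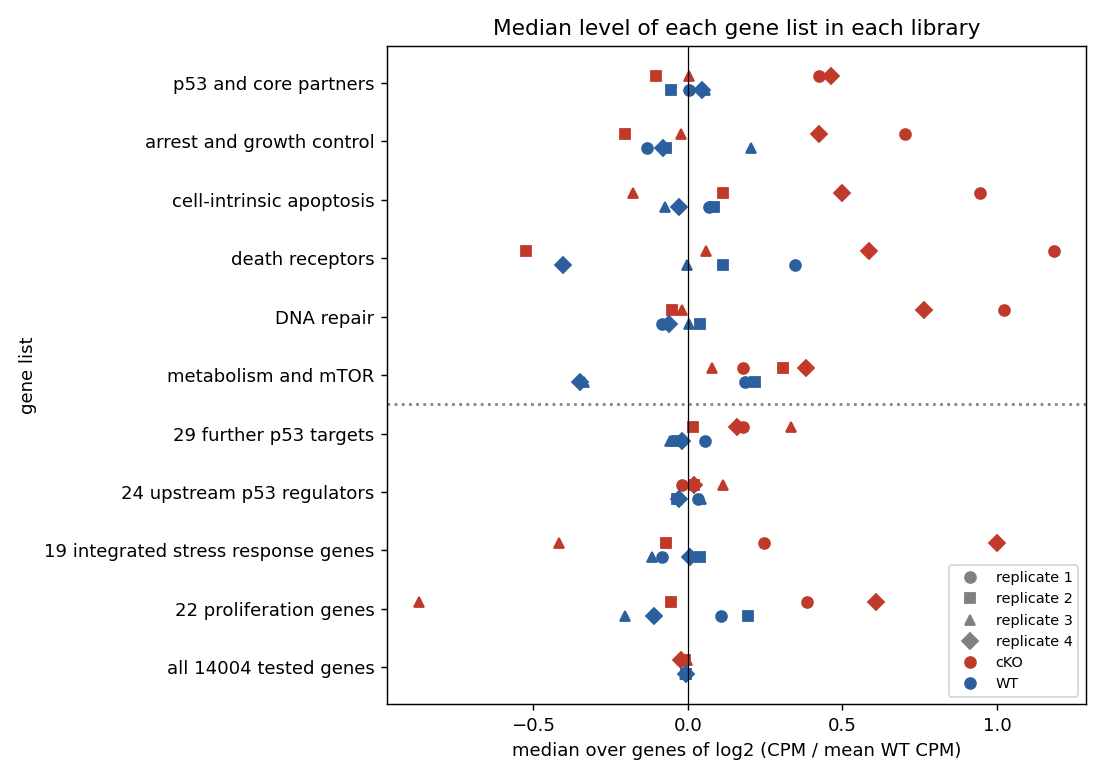
The horizontal axis is the median over the genes of a list of the log2 ratio of CPM to the WT mean, with 1 symbol per library, red for cKO and blue for WT. The 6 role groups of the p53 target genes are above the dotted line and other lists below it; cKO 1 and cKO 4 lie to the right in each of the first 5 groups, and the 24 upstream regulators and all 14004 tested genes stay near 0.

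Other lists also differed among the cKO libraries, and their part in the split of the p53 targets was not tested. Hnrnpu was lowest in cKO replicates 1 and 4, at 43.4% and 71.3% of the WT mean, and at 85.3% and 81.1% in replicates 2 and 3. The 22 proliferation genes, which p53 and p21 are known to lower, had medians of 0.38, -0.05, -0.87 and 0.61 in cKO replicates 1 to 4. All 22 were highest in replicate 4 among the cKO libraries, as were 3770 of all 14004 tested genes. Replicates 1 and 4 were the 2 highest in 20 of the 22 (25.9% of all tested genes). In replicates 1 and 4, 18 and 21 of the 22 were above all WT libraries (28.1% and 29.8% of all tested genes). None of the 22 was called in the comparison of genotypes, and none had an unadjusted p below 0.05. Its most abundant genes were Rrm2, a ribonucleotide reductase subunit (0.35 ± 0.26 SE on the log2 scale, edgeR adjusted p = 0.504), and Cdc20, an activator of the anaphase-promoting complex (-0.22 ± 0.38, adjusted p = 0.809). The 19 genes of the integrated stress response, which shares targets such as Sesn2, Gdf15 and Pmaip1 with p53, had medians of 0.25, -0.07, -0.42 and 1.0, and 16 of 19 were highest in replicate 4. None was called (1.32% of all tested genes), and 5 were higher at an unadjusted p below 0.05 (9.87%). In 11 of the 19, replicates 1 and 4 were the 2 highest cKO libraries (25.9% of all tested genes). The most abundant were Atf4, its central transcription factor (-0.02 ± 0.18, adjusted p = 0.977), and Psat1, an enzyme of serine synthesis (0.24 ± 0.24, adjusted p = 0.636). The 14 immediate early genes had medians of 0.21, -0.32, 0.16 and 0.41 in cKO and from -0.48 to 0.56 in WT, and 3 were higher at an unadjusted p below 0.05 (9.87% of all tested genes) with none called (1.32%). In 5 of the 14, replicates 1 and 4 were the 2 highest cKO libraries (25.9% of all tested genes). The most abundant were Junb (-0.49 ± 0.26, adjusted p = 0.349) and Ier3 (0.03 ± 0.27, adjusted p = 0.966). In bulk tissue a smaller number of cells of a type and less RNA per cell cannot be told apart.

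Marker sums of other cell types gave mixed orders. The 6 neutrophil markers in the table summed to 6908, 1682, 1645 and 9519 CPM in cKO replicates 1 to 4 and to 3706 to 17122 CPM in WT, almost all of it from S100a8 and S100a9, which inflamed keratinocytes also express. Without those 2 genes the remaining 4 summed to 6.58, 30.0, 13 and 8.90 CPM, against 18.7 to 35.9 CPM in WT. Replicates 1, 3 and 4 were below every WT library, and 1 and 4 were the lowest. The 10 macrophage and Langerhans cell markers summed to 422, 684, 571 and 291 CPM, against 337 to 438 CPM in WT. The 7 T cell markers summed to 28.5, 52.5, 38.3 and 17.7 CPM, against 13 to 66.1 CPM in WT. Both sums were lower in replicates 1 and 4 than in 2 and 3. The 10 markers of the outer root sheath and upper follicle include the stress keratin Krt17. They summed to 4581 to 6583 CPM in cKO and to 3342 to 3783 CPM in WT. Melanocyte markers were also higher in every cKO library (61.1 to 123 CPM) than in WT (35.9 to 53.7 CPM). The 4 adipocyte markers in the table were lower in every cKO library (1.86 to 20.5 CPM) than in WT (37.0 to 63.0 CPM). Sebocyte markers overlapped, at 1146 to 3485 CPM in cKO and 852 to 1454 CPM in WT. None of these sums separated replicates 1 and 4 from 2 and 3.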

How the data were processed

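The members and gene lists were chosen with earlier results of these data known. The authors deposited whole-number read counts per gene symbol, made with HISAT2 and HTSeq per the submitters' processing notes, and FPKM values of the same genes. For tool versions, genome build, annotation and strandedness: not given in the sources used here. In the GENCODE M21 annotation 6 of the 32 genes share exon bases with a gene on the opposite strand (Cdkn1a, Dglucy, Ei24, Rrm2b, Tigar and Trp73) and Bax with one on the same strand, and such reads could not be told apart.

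Counts were filtered with filterByExpr (14004 genes kept), scaled with TMM factors (CPM) and tested with edgeR 4.0.16 (quasi-likelihood, R 4.3.3, cKO against WT, no covariate), with Benjamini-Hochberg adjustment over all tested genes. SE is the value implied by the F statistic. The test was checked on simulated counts that held no split among the cKO libraries, so the check does not cover such a split. Exact permutation tests are two-sided over 70 splits and are not adjusted for the number of genes. FPKM served for levels between genes and for limma 3.58.1. DESeq2 1.42.0 and the other alternatives are in the closing section. Values in every library are given for Trp53, Cdkn1a, Mdm2, genes whose genotypes did not overlap and the 8 genes with the smallest p, and for other genes chosen after their values were seen. From each list outside the 32, called genes and the 2 with the highest mean FPKM are named. No pair of libraries of 1 genotype agreed within sampling noise (lowest chi-square per degree of freedom 47.9). The design text gives 4 mice per genotype.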

Additional observations from a re-analysis of the deposited data

Results flagged for a closer look

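In 2 of 62 groups of 4 libraries (31 genes in each genotype) 1 library stood apart from the other 3 by a Dixon test at the 95% level, where chance gives about 1 in 20. Phlda3 in WT replicate 4 stood at 156 CPM with the other WT libraries between 128 and 133 CPM. Sesn2 in WT replicate 1 stood at 20.5 CPM with the others between 23.4 and 23.8 CPM. This test cannot flag a group in which 2 libraries are high and 2 are low.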

How the results depend on the processing

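The 8 libraries limit precision more than depth does, since only Ddit4l and Gdf15 among the 32 genes had under 50 counts in any library. Over all tested genes 185 were called, 1294 with DESeq2, 349 without a count filter and 692 without cKO replicates 1 and 4. Leaving out 1 library gave 8 to 506 calls: 20, 506, 66 and 213 without cKO replicates 1 to 4, and 34, 36, 8 and 23 without WT replicates 1 to 4. Of the 31 p53 target genes 5 were called with DESeq2, and 0 to 1 when 1 library was left out (Ddit4l, without cKO replicate 2). Without cKO replicates 1 and 4, 2 were called (Plk2 and Pmaip1), against 4.76% of all tested genes. Those replicates were the 2 highest cKO libraries of both, as of 24 of the 31 genes. Leaving them out lowers the fold changes of such genes by construction. The median log2 fold change of the 31 genes was -0.052 without cKO replicates 1 and 4. With 1 library left out it was 0.16 to 0.46, lowest without cKO replicate 1.

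Without cKO replicates 1 and 4 the sign reversed for Trp53 (-0.052), Cdkn1a (-0.19), Ccng1 (-0.21), Ccng2 (0.26), Btg2 (-0.0903), Bax (-0.20), Apaf1 (-0.34), Aen (-0.11), Phlda3 (-0.0714), Tnfrsf10b (-0.74), Eda2r (-0.18), Polk (-0.11) and Sesn2 (-0.0316), and the cause was not tested. Rrm2b was 0.00675 with library size scaling alone, and 0.00595 and 0.00827 with limma on log2(FPKM + 1) and log2(FPKM + 0.1). With 1 library left out the sign also reversed for Rrm2b (-0.0993 to 0.000254), Ccng2 (-0.29 to 0.0539), Plk2 (-0.44 to 0.0515), Pidd1 (-0.0228 to 0.19) and Tnfrsf10b (-0.13 to 0.56). In all, 23 of 557 values reversed, and 15 of the 31 genes never did.

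With the replicate number as a block 216 genes were called, none of them among the 31, whose median was 0.26. The numbers were not treated as pairs: the correlations of same-numbered libraries were -0.10, 0.13, 0.10 and 0.19, and 2 of 4 numbers correlated best with their own.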
